A study of Homo sapiens with 6 samples.

Results

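The genes described are 38 target genes of the transcription factor p53, followed in SaOS-2 cells, a human osteosarcoma line that lacks p53 and RB. They were chosen by symbol from known p53 targets, with earlier results of these data known, and all 38 were found among the 23228 gene names of the table. CDKN1A, the p53 target that encodes p21, was left out of the set because the vector in these cells carries p21. Every library came from SaOS-2 cells with the tetracycline-inducible p21 vector: 3 libraries of the p21 OFF group had no drug, and 3 of the p21 ON group had 24 h of doxycycline at 1 μg/ml. Polyadenylated RNA was sequenced. The study asked with these cells how cell cycle genes respond to p21 when RB and p53 are missing, and the comparison given here asks what p21 ON does to p53 targets in such cells. Doxycycline was present in every p21 ON library and in none of the p21 OFF libraries, so p21 and the drug cannot be told apart. The labels do not say whether the 3 libraries of a group came from separate cultures, and p-values therefore measure the spread between these libraries only.

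p53 is a tetramer that binds DNA at pairs of a short symmetric motif and switches on nearby genes after DNA damage and other stress. Its targets arrest the cell cycle, repair DNA, start apoptosis, tune metabolism and, through MDM2, return p53 itself to a low level. p21 is one of these products and inhibits cyclin-dependent kinases downstream of p53, so it is not itself a factor that binds p53 response elements. p63 and p73 are the relatives of p53 and can bind the same elements.

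The genes were chosen as known p53 targets, so their share with a p53 response element is not independent of the choice. The response element was found near some of them. It was searched in the GRCh37 genome within 2000 bp on each side of the start of the canonical transcript, as 2 decamers with no spacer, each made of 3 purines, a C, A or T in the next pair of positions, a G and 3 pyrimidines. With at most 2 mismatches and the C and G of each decamer kept, 15 of the 38 windows held a match, or 39.5%, against 2.93% of the windows of 18684 protein-coding genes of the table and 20.2% of those of 258 other direct p53 targets. Of the 15 matches, 11 lay in an intron, 3 upstream of the start and 1 in an untranslated exon. Below are the matches of the members with at most 1 mismatch, and of MDM2, SPATA18 and FAS, the first being the classical p53 target and the others the members with the largest changes. Each is read on the strand of its gene, and capitals mark the bases that match the element, so that lower case within the 20 bases of the element shows a mismatch. The first 5 and last 5 bases are flanks.
ZMAT3 (chr3:178787971-178788000, minus strand): tcataAAACAAGTCCAGACATGCCTaggca
GADD45A (chr1:68152453-68152482, plus strand): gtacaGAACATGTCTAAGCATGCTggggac
CCNG1 (chr5:162864927-162864956, plus strand): tgtgaGcACAAGCCCAGGCTAGTCCgaggc
EDA2R (chrX:65858550-65858579, minus strand): tctgaGAACATGCCTGGACgTGTCCaacaa
DDB2 (chr11:47236515-47236544, plus strand): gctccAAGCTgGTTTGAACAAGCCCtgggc
MDM2 (chr12:69202698-69202727, plus strand): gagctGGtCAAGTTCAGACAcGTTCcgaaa
SPATA18 (chr4:52918118-52918147, plus strand): aggaaGGACATGTgTGtACATGCCCttgtc
FAS (chr10:90751061-90751090, plus strand): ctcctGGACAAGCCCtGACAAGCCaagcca
ZMAT3 was the single member with no mismatch. The DDB2 match spans the start of the canonical transcript, in an untranslated exon of the gene, and the other 7 lie in introns, that of MDM2 746 bp downstream of the start. A match is a description of letters, and a window without a match says nothing about p53 binding.

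Values are counts that the authors divided by the size factor of each library, called normalised counts here. The reads on genes numbered 12795490, 20914151 and 21975045 in p21 OFF replicates 1 to 3 and 13440402, 12918390 and 16630552 in p21 ON replicates 1 to 3. CDKN1A checked the labels: it had 1266 ± 84.5 normalised counts (SD, n = 3) in p21 OFF and 43691 ± 3138 (SD, n = 3) in p21 ON libraries, reads of the vector included. The strand setting of the counting is not given in the sources used here, and exons of 14 of the 38 genes, MDM2, FAS, XPC and KITLG among them, overlap exons read from the other strand. Of 11 osteoblast markers 8 had a mean of at least 10, with ALPL the most abundant, while COL1A2 and SPP1 stayed under 5 normalised counts in every library and BGLAP had no read in any. Of 9 markers of epithelial, blood and endothelial cells 3 reached a mean of 10, EPCAM, VWF and PECAM1, and KRT19 had no read. The 9 summed to 457, 383 and 387 normalised counts in p21 OFF and 437, 401 and 411 in p21 ON libraries, most of it from EPCAM. IBSP and DLX5, osteoblast markers, fell by 0.38 and 0.26 on the log2 scale in p21 ON libraries and the endothelial VWF rose by 0.50, while the osteoblast list as a whole summed to 74619, 75941 and 77740 normalised counts in p21 OFF and 76505, 75613 and 78955 in p21 ON libraries. The part of these markers in the results was not tested.

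p21 OFF replicate 1 stood apart from the other p21 OFF libraries. Its counts differed from theirs by a chi-square per gene of 8.50 and 9.26, against 3.03 between replicates 2 and 3 and 2.71 to 3.98 among the p21 ON libraries. Its short transcripts were high and its long ones low relative to the group mean (Spearman correlation of length with the deviation -0.51 across 12630 genes, which are not independent). It was also the smallest library. Where the call of a p53 target changed without it, the value is given below. Without it some log2 fold changes that were not called also moved, that of BBC3 from 0.14 to 0.34, of CCNG1 from -0.16 to -0.10, of TNFRSF10B from 0.08 to 0.02 and of EDA2R from 0.06 to 0.005, and these were again not called. The log2 fold change between the groups also went with transcript length. The Spearman correlation was 0.36 across the 12630 genes and 0.10 across the 35 tested members, and its cause was not tested.

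The p53 targets as a set moved little when p21 was switched on. Of the 38 genes, 35 had a mean of at least 10 normalised counts and were tested with limma on log2(normalised count + 1). With an adjusted p-value under 0.05 from limma, adjusted over all genes tested, 7 of the 35 were called, 4 higher and 3 lower, where the calls took in 23.2% of the 13255 genes tested (10.5% higher and 12.7% lower). SPATA18, XPC, KITLG and ASCC3 rose, and FAS, TRIAP1 and RPS27L fell. At an unadjusted p under 0.05 by limma, 7 of the 35 were higher and 6 lower, where 2354 and 2527 of the 13255 genes tested were. The counts depended on single libraries: without p21 ON replicate 1 limma called 2 in all, XPC and SPATA18, and without p21 ON replicate 3 it called 3 higher and 1 lower. With replicate 2 of either group left out it called 2 higher and 2 lower. Without p21 OFF replicate 1 the calls were SPATA18, XPC, KITLG and GADD45A higher and AEN and POLH lower. The median log2 fold change of the 35 was 0.06, where all genes tested had 0.01, and the quartiles were -0.11 and 0.16, against -0.14 and 0.17 over all genes. Their median change regardless of sign was 0.14 on the log2 scale, against 0.15 over all genes. No member changed by as much as 1 on the log2 scale, a doubling, and 33 of 35 lay within 0.5 of 0, as did 91.7% of all genes tested. In bulk RNA, fewer cells that express a gene and less of its RNA per cell cannot be told apart. Fold changes on this scale understate the change of weakly expressed genes.

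**Figure D1:**
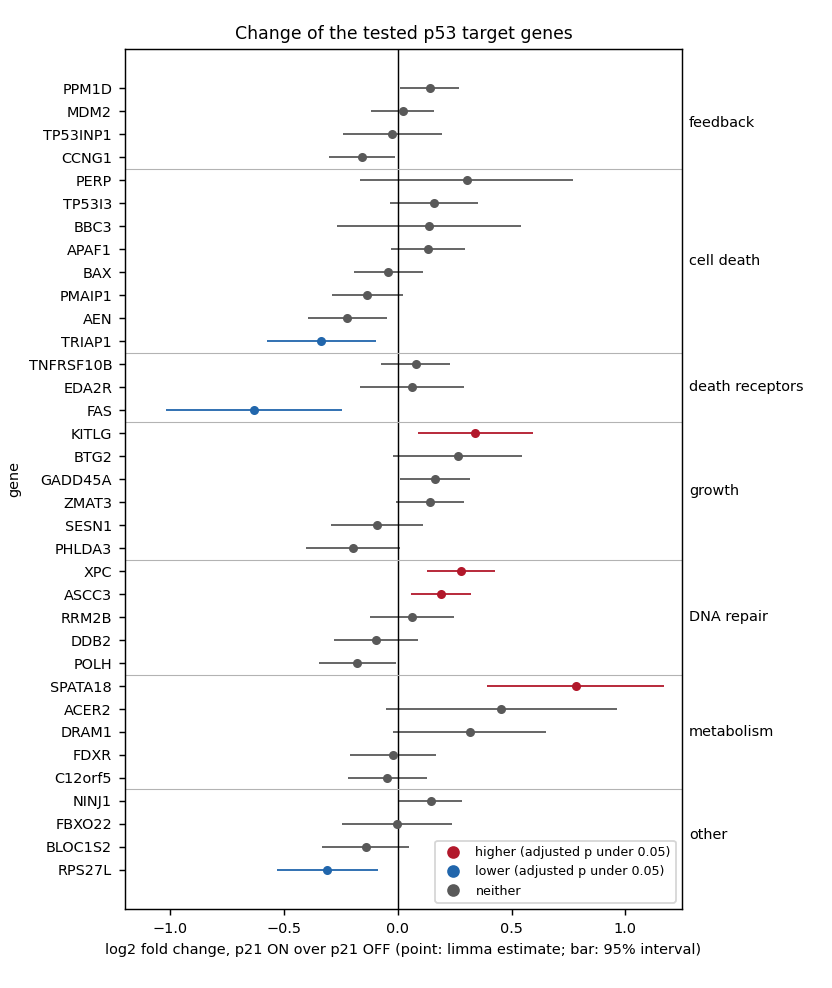
Log2 fold change (x axis, p21 ON over p21 OFF) of the 35 tested p53 target genes (y axis, grouped by role), with the limma estimate as a point and its 95% interval as a bar. The 4 genes called higher are red, the 3 called lower blue and the 28 others grey, and apart from SPATA18 at 0.78 and FAS at -0.63 all points lie within 0.5 of 0.

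The values of the libraries separated the groups for some genes that the test did not call. All p21 ON libraries lay above all p21 OFF libraries for 8 members and below them for 4, together 12 of 35, against 40.4% of all genes tested (19.1% above and 21.3% below). Of the 28 members not called, 23 had a 95% interval that stayed within 0.5 of 0 on the log2 scale in both directions. For the other 5, BBC3, PERP, BTG2, DRAM1 and ACER2, all with a mean under 120 normalised counts, the interval reached past 0.5 upward. Across the 19 settings of the analysis, the main one included, XPC and SPATA18 were called in every setting, 13 members in at least 1, and 22 in none. How many of all genes tested were called in at least 1 setting was not counted.

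**Figure D2:**
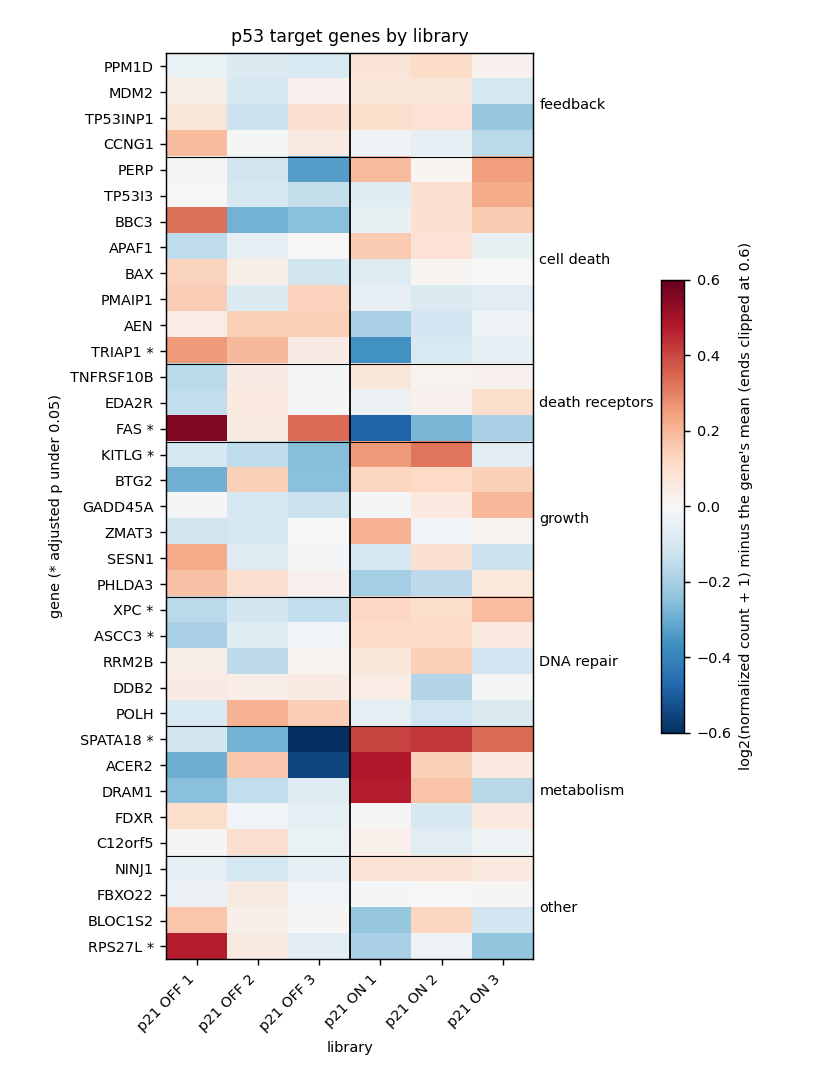
Heat map of the 35 tested genes (rows, by role) in the 6 libraries (columns), as log2(normalised count + 1) minus the mean of each gene over the 6 libraries. The rows of SPATA18, XPC and FAS change colour between the groups, most rows stay pale, and the high RPS27L value of p21 OFF replicate 1 stands out.

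MDM2, PPM1D, CCNG1 and TP53INP1 act back on p53: MDM2 is the ubiquitin ligase that degrades it, PPM1D a phosphatase that turns off its activating kinases, CCNG1 a cyclin that works with MDM2 and TP53INP1 a stress protein that aids its apoptotic function. None of the 4 passed the test. MDM2, on chromosome 12 from 69201957 to 69239324, had 2519, 2299 and 2504 normalised counts in p21 OFF and 2575, 2581 and 2282 in p21 ON libraries. The groups overlapped over their whole range, and the log2 fold change of 0.02 had a 95% interval from -0.12 to 0.16 (limma, adjusted p = 0.841). A rise of MDM2 beyond 1.12-fold therefore lay outside the interval. PPM1D was at 1326, 1287 and 1279 normalised counts in p21 OFF and 1435, 1468 and 1385 in p21 ON libraries, with no overlap, a log2 fold change of 0.14 and a limma adjusted p of 0.107, and was called when libraries were scaled by their size alone (0.18). CCNG1 lay the other way without overlap, at -0.16 (limma, adjusted p = 0.103). TP53INP1 was at -0.02.

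Of the 8 genes of the mitochondrial and caspase steps of cell death, TRIAP1 fell and 7 did not pass the test. TRIAP1 encodes a small protein that restrains apoptosis by holding back APAF1-dependent caspase activation. It lies on chromosome 12 from 120881767 to 120884187 and had 205, 196 and 177 normalised counts in p21 OFF against 133, 161 and 165 in p21 ON libraries. The groups did not overlap, and the log2 fold change was -0.34 ± 0.11 (SE; limma, adjusted p = 0.0401). Without p21 OFF replicate 1 it was -0.29 and was not called (limma, adjusted p = 0.0804). The call was also lost without any of p21 OFF replicate 2 and p21 ON replicates 1, 2 and 3, at log2 fold changes of -0.24 to -0.39, and 7 of the 18 alternatives kept it. With a trend with transcript length taken out of each library the log2 fold change was -0.19 (limma, adjusted p = 0.188).

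Among the effectors of the same pathway, BAX, which opens the outer mitochondrial membrane, had 1041, 972 and 879 normalised counts in p21 OFF and 899, 955 and 950 in p21 ON libraries. PMAIP1 (NOXA), a BH3-only protein that blocks survival proteins of the BCL2 family, had 885, 753 and 877 normalised counts in p21 OFF and 771, 753 and 762 in p21 ON libraries. The groups overlapped for both genes. The 95% interval was -0.19 to 0.11 on the log2 scale for BAX and -0.29 to 0.02 for PMAIP1. BAX was at -0.04 in the main fit and at 0.15 with the length trend taken out, again without a call (limma, adjusted p = 0.0667). BBC3 (PUMA), another BH3-only protein, was weakly expressed, with a mean of 45.5 ± 11.7 normalised counts in p21 OFF and 49.2 ± 3.49 in p21 ON libraries (SD, n = 3 each), and its interval of -0.27 to 0.54 was wide. APAF1, the scaffold of the apoptosome, was at 0.13 and TP53I3, an oxidoreductase, at 0.16, or 0.26 and called with the length trend taken out. PERP, a membrane protein of desmosomes, was at 0.30, with a mean of 22.8 ± 2.63 normalised counts in p21 OFF and 28.4 ± 2.49 in p21 ON libraries (SD, n = 3 each). AEN, a nuclease of apoptotic cells, lay lower in every p21 ON library, with a log2 fold change of -0.22 (limma, adjusted p = 0.0588), and was called without p21 OFF replicate 1 (-0.25, limma, adjusted p = 0.0306).

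FAS, TNFRSF10B, TNFRSF10C and EDA2R encode receptors of the TNF receptor family. FAS, the receptor of FAS ligand that starts the extrinsic death pathway, showed the largest fall of the set. It lies on chromosome 10 from 90750414 to 90775542 and had 67.8, 47.6 and 58.4 normalised counts in p21 OFF against 32.6, 37.8 and 39.9 in p21 ON libraries. Each p21 ON library lay under each p21 OFF library, although the gap between the nearest values was smaller than the spread of the p21 OFF group. The mean went from 58.0 ± 10.1 to 36.8 ± 3.76 (SD, n = 3 each), and the fitted log2 difference was -0.63 ± 0.18 (SE; limma, adjusted p = 0.0191). Without p21 OFF replicate 1 the fold change was -0.51 and the limma adjusted p 0.0733, without p21 ON replicate 1 they were -0.55 and 0.0865, and DESeq2 gave an adjusted p of 0.0666. Its exons overlap those of ACTA2, which is read from the other strand.

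No other receptor of this group was called. TNFRSF10B (DR5), a receptor of TRAIL, had 723, 838 and 805 normalised counts in p21 OFF and 851, 820 and 824 in p21 ON libraries, with overlap and a log2 fold change of 0.08. EDA2R, the receptor of ectodysplasin A2, was at 0.06, with 138 to 159 normalised counts in p21 OFF and 149 to 164 in p21 ON libraries. TNFRSF10C, a decoy receptor of TRAIL without a death domain, was too weakly expressed for the test, with 6, 6 and 8 reads in p21 OFF and 7, 14 and 14 in p21 ON libraries. In normalised counts its p21 ON libraries lay above the p21 OFF libraries, and without the filter on low values its log2 fold change was 0.94 (limma, adjusted p = 0.0855).

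Of the 6 genes of growth arrest and growth signalling, KITLG rose. KITLG encodes stem cell factor, the ligand of the receptor KIT, and lies on chromosome 12 from 88886570 to 88974628. It had 139, 135 and 126 normalised counts in p21 OFF and 179, 188 and 143 in p21 ON libraries. The groups did not overlap, but p21 ON replicate 3 came close to the p21 OFF libraries, and the log2 fold change was 0.34 ± 0.12 (SE; limma, adjusted p = 0.048). The call was lost in 8 of 18 alternatives, DESeq2 (adjusted p = 0.0842) and the fits without p21 OFF replicate 2 or 3 or p21 ON replicate 1 or 2 among them, with log2 fold changes from 0.27 to 0.35 in these 5.

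GADD45A, a stress sensor that binds PCNA and p21, had 815, 765 and 752 normalised counts in p21 OFF and 817, 855 and 943 in p21 ON libraries. The groups touched but did not overlap, and the log2 fold change of 0.16 was not called (limma, adjusted p = 0.111). Without p21 OFF replicate 1 it was called (0.20, limma, adjusted p = 0.0381), as it was after the length trend was taken out (0.29, limma, adjusted p = 0.00192). BTG2, an antiproliferative cofactor of mRNA deadenylation, was at 0.26, and ZMAT3, a zinc finger protein that binds RNA, at 0.14. SESN1, a stress protein that restrains mTORC1, was at -0.09 and PHLDA3, an inhibitor of AKT, at -0.20. None of these 5 passed the test.

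The DNA repair and deoxynucleotide genes held 2 of the 4 rises. XPC, the protein that recognises DNA lesions for nucleotide excision repair, lies on chromosome 3 from 14186647 to 14220121. It had 505, 523 and 510 normalised counts in p21 OFF and 616, 607 and 642 in p21 ON libraries. The groups lay well apart with little spread in either, at 512 ± 9.11 and 622 ± 18.5 (SD, n = 3 each), and the log2 fold change was 0.28 ± 0.07 (SE; limma, adjusted p = 0.00955), a 1.21-fold rise. It was called in all 18 alternatives, with log2 fold changes from 0.25 to 0.32. XPC exons overlap those of its antisense gene XPC-AS1.

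ASCC3, the helicase of the alkylation repair complex and of ribosome rescue, rose less. It had 1742, 1888 and 1969 normalised counts in p21 OFF and 2154, 2154 and 2073 in p21 ON libraries, a log2 fold change of 0.19 ± 0.06 (SE; limma, adjusted p = 0.036). The groups did not overlap, and p21 OFF replicate 1 was the lowest library. Without it the log2 fold change was 0.14 (limma, adjusted p = 0.0666), and with the length trend taken out it was 0.07 (limma, adjusted p = 0.327). The call was also lost without p21 OFF replicate 2 and without each of the p21 ON libraries, where the log2 fold change was 0.18 to 0.21.

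DDB2, the partner of XPC in the detection of ultraviolet lesions, was at -0.09, with 319, 316 and 319 normalised counts in p21 OFF and 318, 273 and 305 in p21 ON libraries. Its values overlapped between the groups. RRM2B, the p53-inducible subunit of ribonucleotide reductase, was at 0.06. POLH, a polymerase that copies past ultraviolet lesions, was at -0.18 (limma, adjusted p = 0.12), with 593, 730 and 699 normalised counts in p21 OFF and 605, 581 and 594 in p21 ON libraries. Only p21 OFF replicate 1 overlapped the p21 ON group. Without that library POLH was called lower (-0.27, limma, adjusted p = 0.0061), as it was with the length trend taken out (-0.30, limma, adjusted p = 0.00173).

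Of the 6 genes of metabolism, mitochondria and autophagy, SPATA18 (MIEAP), which takes part in the clearance of damaged mitochondrial proteins, showed the largest rise of the set. It lies on chromosome 4 from 52917470 to 52963465, and its printed element is in the intron 653 bp from the start. It had 47.7, 42.2 and 29.6 normalised counts in p21 OFF and 68.7, 69.5 and 65.6 in p21 ON libraries. The lowest p21 ON value lay far above the highest p21 OFF value. The mean went from 39.8 ± 9.31 to 67.9 ± 2.06 (SD, n = 3 each), and the fitted log2 difference was 0.78 ± 0.18 (SE; limma, adjusted p = 0.00586) or 1.72-fold, with a 95% interval from 0.39 to 1.17. In the 18 alternatives, which all called it, the log2 fold change ranged from 0.59 to 0.92.

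DRAM1, a lysosomal membrane protein of autophagy, and ACER2, a Golgi ceramidase, were at 0.32 and 0.45 on the log2 scale without a call. With each library left out in turn DRAM1 ranged from 0.16 to 0.48 and ACER2 from 0.29 to 0.65, and neither was called. DRAM1 had 65.3, 70.3 and 73.9 normalised counts in p21 OFF and 108, 87.7 and 69.4 in p21 ON libraries, where p21 ON replicate 3 fell inside the p21 OFF range. C12orf5 (TIGAR), a fructose bisphosphatase that lowers glycolysis, was at -0.05 and FDXR, ferredoxin reductase of mitochondria, at -0.02. CMBL, a hydrolase, was all but silent, with 0, 0 and 1 reads in p21 OFF and 0, 2 and 0 in p21 ON libraries, and was not tested.

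Of the remaining 5 genes RPS27L fell, and the size of its fall depended strongly on a single library. RPS27L, a ribosomal protein paralog that p53 induces, lies on chromosome 15 from 63418071 to 63450220. It had 1066, 797 and 736 normalised counts in p21 OFF and 671, 752 and 651 in p21 ON libraries. The groups overlapped, and p21 OFF replicate 1 was far above the rest. The log2 fold change was -0.31 ± 0.11 (SE; limma, adjusted p = 0.0416), and without p21 OFF replicate 1 it was -0.15 (limma, adjusted p = 0.141). Without p21 ON replicate 1 or 3 it was -0.29 or -0.27 and not called. Of the 18 alternatives 13 kept the call. With the length trend taken out the log2 fold change was -0.38 (limma, adjusted p = 0.0136). How reads shared by RPS27L and its paralog RPS27 were counted is not given in the sources used here.

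NINJ1, which ruptures the plasma membrane of dying cells, was at 777, 754 and 782 normalised counts in p21 OFF and 857, 855 and 845 in p21 ON libraries. Its groups did not overlap, yet the log2 fold change of 0.14 had a limma adjusted p of 0.116. It was called with the length trend taken out (0.28, limma, adjusted p = 0.00289) and when libraries were scaled by their size alone (0.19, limma, adjusted p = 0.0465). BLOC1S2, a subunit of the BLOC-1 and BORC complexes, was at -0.14 and FBXO22, a ubiquitin ligase subunit, at 0.00, with 114 to 122 normalised counts in all libraries. TRIM22, an antiviral ubiquitin ligase, had 1, 3 and 1 reads in p21 OFF and 0, 0 and 3 in p21 ON libraries and was not tested.

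**Figure D3:**
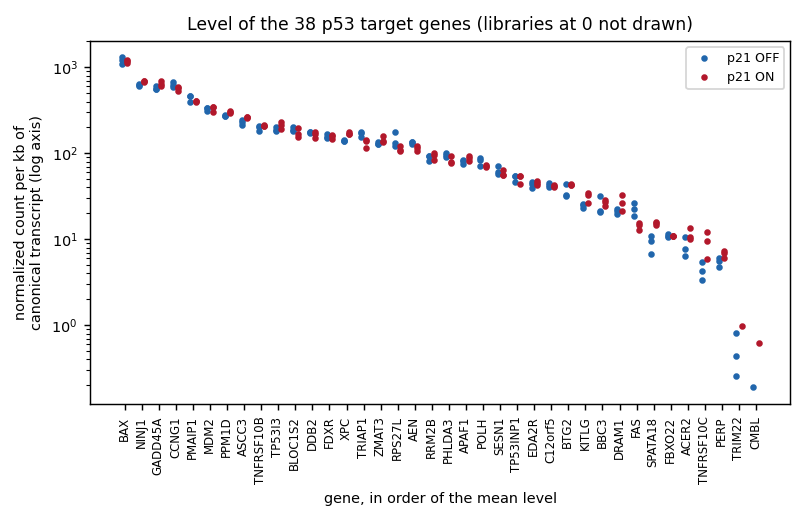
Normalised count per kb of canonical transcript (y axis, log scale) of the 38 genes (x axis, by mean level) in the p21 OFF (blue) and p21 ON (red) libraries, a point per library. The genes span from BAX at 1194 to CMBL at 0.136 per kb, and the 2 colours lie on each other for most genes.

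Without p53 the targets kept very different levels. Compared per kb of the canonical transcript, the mean level over the 6 libraries was highest for BAX at 1194 normalised counts per kb, followed by NINJ1 at 656, GADD45A at 610, CCNG1 at 598 and PMAIP1 at 421. BAX stood at percentile 92.7 of the genes tested, MDM2 at 70.4 with 328 normalised counts per kb. At the low end were ACER2 at 9.79, TNFRSF10C at 6.77 and PERP at 6.10 normalised counts per kb, with TRIM22 and CMBL under 1. In all, 15 of the 38 lay above the median level per kb of the genes tested. The canonical transcript may not be the form these cells express, so neighbours in this order are not separated by it. As to the element, of 14 tested members with a match of at most 2 mismatches 1 rose and 1 fell, and of 21 without a match 3 rose and 2 fell, where 21.9% of 356 tested genes with such a match in the whole table were called.

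The study's wider list of direct p53 targets was called about as often as all genes. Without the 38 genes and CDKN1A it held 273 symbols, of which 260 were in the table and 234 were tested. At the same threshold 33 rose, 19 fell and 182 did neither by limma, so 22.2% were called against 23.2% of all genes, and the median log2 fold change was 0.03. Scaling by library size alone, which raised the median of all genes from 0.01 to 0.05 and made 63.0% rather than 45.3% of all calls higher, gave 47 higher and 13 lower in this list, and 7 higher and 1 lower among the 38.

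SLC25A45, RNF144B, FLRT2 and COBLL1 were among the largest rises of that list. SLC25A45, a mitochondrial carrier, had 64.05, 70.30 and 62.09 normalised counts in p21 OFF and 112.92, 95.04 and 117.83 in p21 ON libraries. The groups lay well apart, with a log2 fold change of 0.72 ± 0.14 (SE; limma, adjusted p = 0.00137). On the same scale RNF144B, a ubiquitin ligase, rose by 0.61, FLRT2, a cell adhesion protein, by 0.52 and COBLL1 by 0.49. FLRT2 was at 0.15 and not called once the length trend was taken out. The largest falls were those of RAD51C, C10orf32, C12orf45, IER5 and GPX1. RAD51C, a protein of homologous recombination, had 535, 464 and 468 normalised counts in p21 OFF and 312, 345 and 370 in p21 ON libraries, a log2 fold change of -0.51 ± 0.09 (SE; limma, adjusted p = 0.000485). C10orf32, a subunit of the BORC complex, fell by 0.47, C12orf45 by 0.39, IER5, an immediate early response protein, by 0.38 and GPX1, a glutathione peroxidase, by 0.37. The calls of C10orf32, C12orf45 and IER5 held in 12, 6 and 11 of the 18 alternatives, and each was lost without p21 ON replicate 1 or 3. That of C12orf45 was also lost without p21 OFF replicate 1, where its log2 fold change was -0.28 (limma, adjusted p = 0.161), without replicate 2 of either group (-0.39 for OFF and -0.30 for ON), and was larger with the length trend taken out (-0.70). GPX1 was at -0.19 and still called with the length trend taken out.

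**Figure D4:**
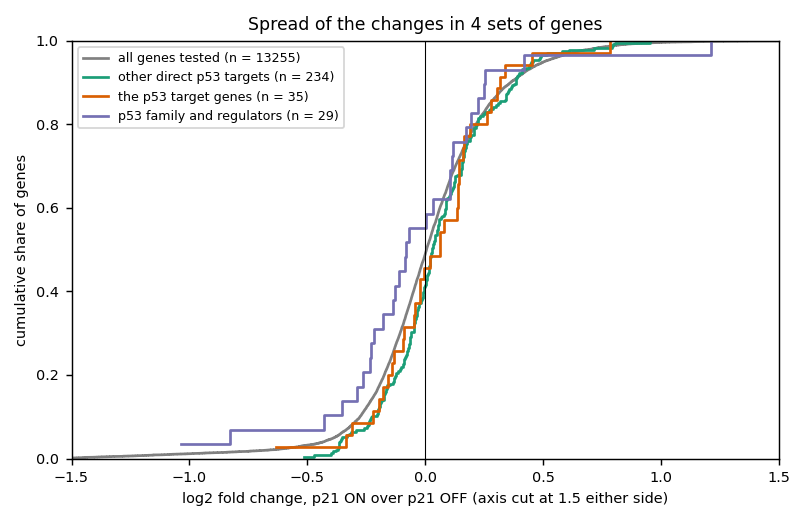
Cumulative share of genes (y axis) by log2 fold change (x axis, p21 ON over p21 OFF) for all 13255 genes tested, the 35 p53 target genes, the 234 other direct p53 targets and the 29 genes of the p53 family and its regulators. The curves of the target lists follow that of all genes near 0, with medians of 0.06 and 0.03 against 0.01, and the regulator curve runs from CHEK2 at -1.04 to TP73 at 1.21.

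TP73 and CHEK2 showed the largest changes among the p53 family and the regulators upstream of the targets. Of 30 such genes 29 were tested, and by limma 3 rose and 7 fell, or 34.5%, against 23.2% of all genes. TP73 encodes the p53 relative p73. It lies on chromosome 1 from 3569080 to 3652765 and had 114, 121 and 133 normalised counts in p21 OFF and 298.0, 255.9 and 304.1 in p21 ON libraries. Every p21 ON library was far above every p21 OFF library, and the mean went from 123 ± 9.5 to 286 ± 26.3 (SD, n = 3 each). The log2 fold change was 1.21 ± 0.11 (SE; limma, adjusted p = 1.39e-07), a 2.32-fold rise, and it ranged from 1.15 to 1.29 in the 18 alternatives, which all called it. Counts are per gene, so forms of p73 with and without the transactivation domain are not separated, and TP73 exons overlap those of TP73-AS1 on the opposite strand. TP63 was nearly absent, at 2.51, 3.12 and 2.22 normalised counts in p21 OFF and 1.16, 1.22 and 0 in p21 ON libraries.

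**Figure D5:**
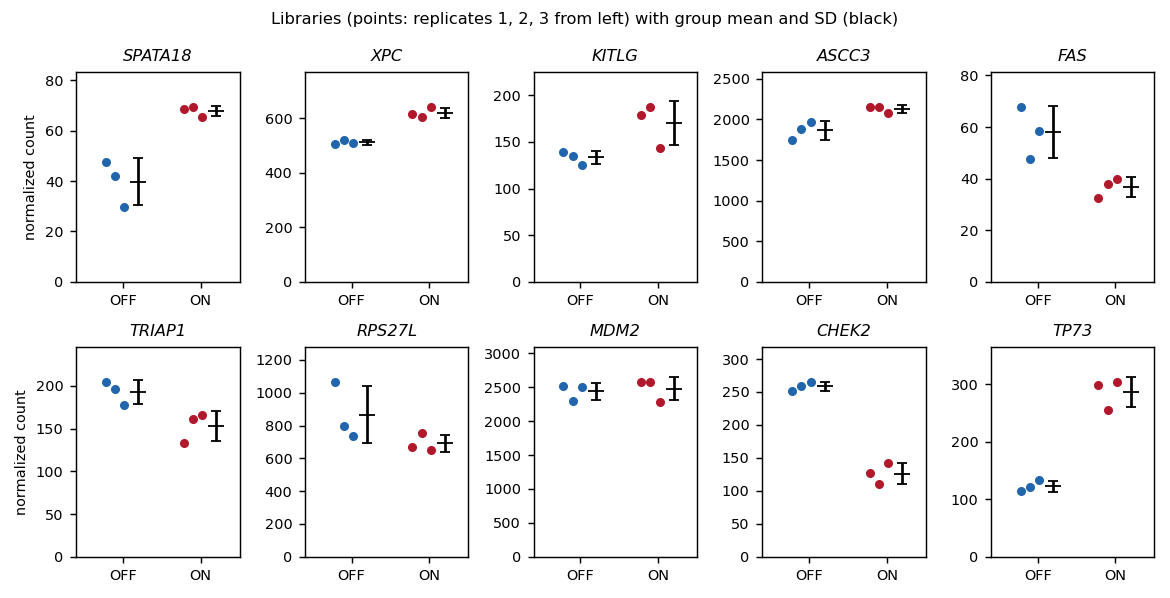
Normalised counts (y axes, from 0) of the 7 called p53 targets, MDM2, CHEK2 and TP73 in the p21 OFF (blue) and p21 ON (red) libraries, with the group mean and SD in black. The groups are apart for SPATA18, XPC, CHEK2 and TP73, close for KITLG, ASCC3, TRIAP1 and FAS, and overlap for RPS27L and MDM2.

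Among the kinases that signal to p53, CHEK2 and CHEK1 fell while PRKDC and ATM rose. CHEK2, the effector kinase of double-strand breaks, had 251, 259 and 265 normalised counts in p21 OFF and 127, 110 and 142 in p21 ON libraries, and its log2 fold change was -1.04 ± 0.11 (SE; limma, adjusted p = 1.7e-06). CHEK1, the effector kinase of stalled forks, fell by 0.43 on the log2 scale (limma, adjusted p = 0.000965). PRKDC, the catalytic subunit of DNA-dependent protein kinase, rose by 0.42 (limma, adjusted p = 0.000253), and by 0.21 with the length trend taken out (limma, adjusted p = 0.00192). ATM, the apical kinase of double-strand breaks, rose by 0.25 (limma, adjusted p = 0.0344) and was not called without p21 OFF replicate 1 (0.18), without replicate 1 (0.19) or 3 of the p21 ON group, or with the length trend taken out (0.05). ATR, its counterpart at stalled forks, was at 0.11 and not called.

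WRAP53, a protein of the telomerase holoenzyme, went from 566, 520 and 498 normalised counts in p21 OFF to 295, 306 and 291 in p21 ON libraries. Its log2 fold change was -0.83 ± 0.08 (SE; limma, adjusted p = 6.01e-07). The other falls were those of KAT8, an acetyltransferase (-0.35), RPL5 (-0.29) and RPL11 (-0.23), ribosomal proteins that bind MDM2, and CDKN2A (-0.26), whose products include the MDM2 inhibitor ARF. RPL5, RPL11 and CDKN2A are short transcripts, and p21 OFF replicate 1 was their highest library. With the length trend taken out their log2 fold changes were -0.13, -0.07 and -0.10, KAT8 was at -0.24, and none of the 4 was called. RPL5 was also not called without p21 ON replicate 3, CDKN2A without p21 ON replicate 1 or 2, KAT8 without p21 ON replicate 1 or 3, and RPL11 without any of these 3 libraries, while without p21 OFF replicate 1 RPL11 was at -0.14 and called. MDM4, the partner of MDM2, was at 0.11, with 232, 212 and 227 normalised counts in p21 OFF and 227, 228 and 270 in p21 ON libraries, and did not pass the test.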

How the data were processed

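Stranded mRNA libraries were read single-end in one lane. The authors used STAR for the alignment (hg19), HTSeq for the counts per gene name and DESeq2 for the size factors that divide them; versions and the strand setting are not given in the sources used here. The deposited values are these normalised counts, a signal per gene and library. In every library 100% of values were whole multiples of the value of 1 read (tolerance 0.01), which returned the reads behind them.

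The main test was limma 3.58.1 (R 4.3.3, eBayes with a trend, no covariates) on log2(normalised count + 1) for the 13255 genes whose mean reached 10, and all of them entered the Benjamini-Hochberg adjustment. On counts simulated from the mean levels of this comparison it called 94% of 100 genes changed 1.5-fold, 100% of 100 changed 2-fold and 9 unchanged genes among 13242. The simulation gave every gene the same small dispersion, changed no weakly expressed gene, and held no outlying library or length trend. These shares therefore do not give the power for weakly expressed members or for the spread of the real libraries. Alternatives were edgeR 4.0.16 and DESeq2 1.42.0 on the recovered reads, other scalings, pseudocounts, filters and thresholds, a replicate block, each library left out, and, added after seeing the data, a length trend taken out of each library. Gene positions and transcripts came from GENCODE 44 on GRCh37, which is hg19.

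The 38 members and the lists were chosen with earlier results of these data known. Values by library are given for members past the threshold and for MDM2, BAX and PMAIP1, and for some others chosen after their values were seen. Of the wider list, the 5 largest changes in each direction are named, among genes whose mean reached 50 and whose groups did not overlap. Some genes of the lists are not reported here.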

Additional observations from a re-analysis of the deposited data

How the results depend on the processing

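XPC and SPATA18 kept their calls in all 18 alternatives. Over the 35 tested members, 583 of 630 comparisons with an alternative kept the side of the threshold, 36 lost a call, 11 gained one and none reversed, and 18 further sign changes in 5 genes were of values without a call. For 22 other genes followed in the same way, 48 of 396 lost a call and none reversed. For the changes below the cause was not tested. Scaling by library size alone gave 7 members higher and 1 lower, a median of 0.11 for the members and 0.0729 for the other direct p53 targets, and 5 regulators higher. An adjusted p-value under 0.01, a stricter threshold by construction, left 616 genes higher and 882 lower, 2 and 0 members by limma (7 and 6 at an unadjusted p under 0.05), 21 and 6 other direct p53 targets and 4 regulators lower. DESeq2 called 1 member lower, RPS27L. Without the filter on low values 12 other direct p53 targets were lower. With the length trend taken out, the medians were 0.0340 for the members and 0.0146 for the other direct p53 targets. When each library was left out, the genes called higher numbered 695 to 1486 and lower 887 to 1660, the lowest without p21 ON replicate 1; members called higher 2 to 4 and lower 0 to 3, the 0 again without p21 ON replicate 1 (3 lower at an unadjusted p under 0.05); other direct p53 targets 20 to 39 and 7 to 18; regulators 2 to 5 and 4 to 8; and the medians were 0.0235 to 0.0834 and 0.0252 to 0.0406.

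Libraries of a number did not deviate together: the correlations of same-numbered libraries across genes were -0.06, -0.02 and -0.05. These values gave no sign of pairing by number. They cannot show whether same-numbered libraries were prepared together, which the labels do not say. With the replicate block in the fit, limma called 1407 genes higher and 1513 lower, 3 members in each direction, without ASCC3 (limma, adjusted p = 0.0731), and 5 regulators higher. At 12795490 to 21975045 reads per library, CMBL and TRIM22 had at most 3 reads in any library.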
